A study of Mus musculus with 6 samples.

Results

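A set of 10 chemokine and chemokine receptor genes was read on the 6 microarrays of an acute myeloid leukaemia study in mice. They are the 6 ligands Cxcl9, Cxcl10, Cxcl3, Ccl3, Ccl6 and Ccl9, the 3 signalling receptors Cxcr2, Cxcr4 and Ccr2, and the atypical receptor Ccrl2. These 10 genes were taken by name from a table of 22180 genes, and each was read by 1 probe set. Evi1 Tg leukaemia carried an Evi1 transgene and was compared with WT leukaemia, of wild-type genotype, with n = 3 arrays each. Both leukaemias were driven by the MLL-AF9 fusion oncogene on a C57BL/6J background and were untreated. Evi1 is a zinc finger transcription factor encoded by Mecom. RNA came from 10000 leukaemia cells per sample sorted for green fluorescence. Neither the promoter of the transgene, the age of the mice, nor whether arrays came from separate animals is given in the sources used here, and the p-values below therefore cover only array-to-array spread.

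Chemokines are small secreted proteins that bind to G protein-coupled receptors and direct the movement of leukocytes. Names follow the spacing of the leading cysteines, with CC ligands mostly binding CCR receptors and CXC ligands CXCR receptors. In the bone marrow CXCR4 holds stem, progenitor and leukaemia cells in their niches, CXCR2 drives the release of neutrophils and CCR2 that of monocytes. Atypical receptors bind ligands without the usual G protein signal.

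Of the 10 genes, Cxcl9, Cxcl10, Ccl6 and Ccrl2 had lower signal on all 3 Evi1 Tg arrays than on any WT array. Mean signal, here and throughout, is the mean of log2 values turned back to intensity. It was 1.86-fold to 1.99-fold lower in Evi1 Tg for Cxcl10, Ccl6 and Ccrl2. Cxcl9 was below background on all 3 Evi1 Tg arrays, and its WT mean was 2.52-fold above background. The other 6 genes overlapped between the groups. The test was limma, a moderated linear model on log2 intensity whose p-values were adjusted across the whole table (Benjamini-Hochberg), and an adjusted p under 0.05 was a call. By it 0 of the 10 genes passed, against 0.113% of the 22180 genes (0.104% lower and 0.00902% higher). At an unadjusted p under 0.05 the count was 4 of 10, all lower in Evi1 Tg, against 10.3% of all genes (5.8% lower). Groups without overlap, 4 of the 10 and all lower, were seen for 14.6% of all genes (7.47% lower and 7.08% higher). Differences lay below 0 for 7 of the 10, against 46.5% of all genes, and the median difference was -0.82, against 0.01. As the 10 genes were picked with earlier results of these arrays known, these shares describe them and support no claim about chemokines as a class.

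**Figure D1:**
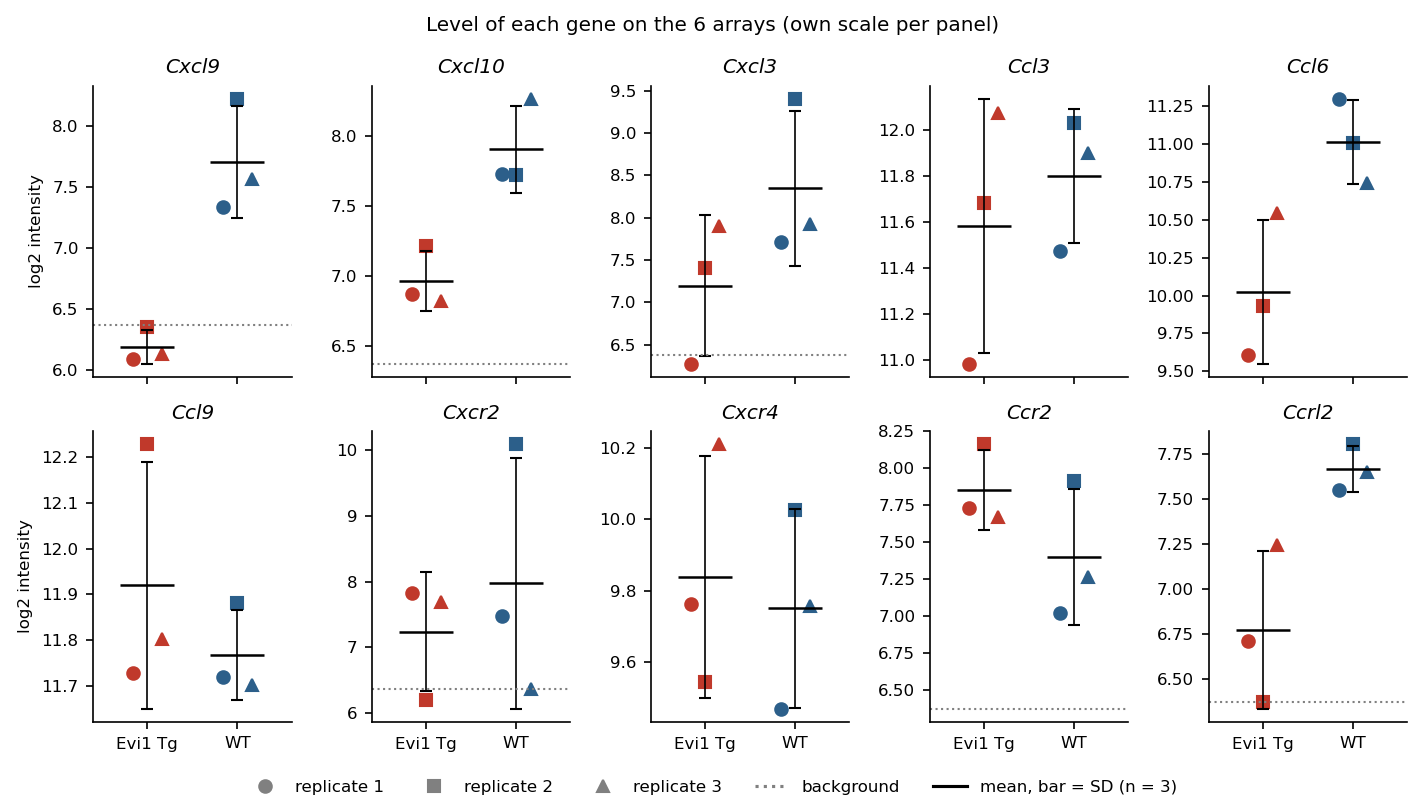
Log2 intensity of the 10 genes on each array, with Evi1 Tg on the left and WT on the right of every panel, each panel on its own scale. Points are arrays, horizontal lines are means, bars are SD (n = 3) and the dotted line is background (intensity 82.9). Cxcl9, Cxcl10, Ccl6 and Ccrl2 are the genes whose groups do not overlap.

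The arrays had median intensities between 51.6 and 55.4. A background of 82.9 was set as the 90th percentile of the means of 74 genes known to be silent in blood cells, and 42.2% of genes lay above it. All 14 markers fixed for leukaemic and myeloid identity, among them Spi1, Itgam and Cd33, were brighter than background in mean. Mecom itself read 40.7, 37.7 and 37.5 in Evi1 Tg, against 39.4, 37.4 and 34.2 in WT, all below background, so the labels could not be checked by it. Of 11 measured T cell markers 2 were brighter than background and of 9 NK cell markers 1 was, and the defining Cd3e and Ncr1 were below it on all arrays. Markers of eosinophils, basophils and mast cells summed to intensities of 669 to 751 in Evi1 Tg and 784 to 1865 in WT, with 2 of 15 brighter than background. Within that list Hdc, which makes histamine, averaged 41.0 in Evi1 Tg and 130.3 in WT, without overlap (limma adjusted p = 0.232). Hdc was below background on all Evi1 Tg arrays and on WT 1 (80.8), and it was highest on WT 2 (273.7). Cpa3 was below background on all Evi1 Tg arrays and read 25.1, 621 and 239 in WT, so the groups overlapped. B cell markers summed to 391 to 406 in Evi1 Tg and 425 to 478 in WT, with 0 of 9 brighter than background. Of the 14 identity markers 7 lay above and 7 below 0 (median -0.002), and 42.9% had groups without overlap, against 14.6% of all genes. Without overlap were Mpo (log2 difference 2.80), Cd34 (2.53), Kit (1.22) and Meis1 (0.85) above 0, and Itgb2 (-0.46) and Ptprc (-0.39) below. None passed the threshold (limma adjusted p of 0.139, 0.315, 0.0772, 0.328, 0.29 and 0.418, in that order). Cd34 read 573, 812 and 86.7 in Evi1 Tg and was below background on all WT arrays, so Evi1 Tg 3 was close to background. Mpo was below background on WT 2, at 68.1. The part of these lists in the chemokine values was not tested. Neutrophil markers, Cxcr2 included, summed to 4310 to 15380 in Evi1 Tg and 4741 to 15630 in WT. Monocyte and macrophage markers, Ccr2 included, summed to 11780 to 13040 in Evi1 Tg and 11670 to 13610 in WT. WT 2 had the highest sum of the eosinophil and mast cell list. The neutrophil sums of WT 2 (15630) and Evi1 Tg 3 (15380) were close, and Cxcr2 made up 1085 and 206.5 of them. Their order therefore depends on Cxcr2, and without it Evi1 Tg 3 was the higher. In bulk RNA, fewer cells of a type and less RNA per cell cannot be told apart.

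Cxcl9 and Cxcl10 are ligands of CXCR3, a receptor of activated T cells and NK cells, and both are induced by interferons. Cxcl9 had intensities of 68.5, 81.7 and 70.2 in Evi1 Tg, against 162, 298 and 189 in WT. All 3 Evi1 Tg arrays thus lay below background and all 3 WT arrays above it. The log2 difference, Evi1 Tg minus WT, was -1.51 (SE 0.22, n = 3 per group, limma adjusted p = 0.08), and against background the signal was at least 2.52-fold lower. Cxcl9 passed the threshold in 5 of 15 alternative fits, with adjusted p between 0.0304 and 0.482. Among them was the fit that left out dim genes, a filter that Cxcl9 passed only through its WT signal, so that call adds no support. Those 5 included the fits without WT 2 (log2 difference -1.26, limma adjusted p = 0.0304) and without WT 3 (-1.58, limma adjusted p = 0.036).

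Cxcl10 read 117, 148 and 113 in Evi1 Tg, against 212, 212 and 308 in WT. It was above background on every array, and the highest Evi1 Tg array lay below the lowest WT array. Evi1 Tg minus WT was -0.94 on the log2 scale (SE 0.179, limma adjusted p = 0.15), a 1.92-fold lower signal. Without WT 3 the difference was -0.76 and passed (limma adjusted p = 0.0471), and without WT 2 it was -1.03. Cxcl11, the other CXCR3 ligand, was below background at means of 52.7 in Evi1 Tg and 55.7 in WT (log2 difference -0.08, SE 0.0933).

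Cxcl9 and Cxcl10 lie close together on chromosome 5, with Art3, an ADP-ribosyltransferase gene, between them in map order. Art3 averaged 37.7 in Evi1 Tg and 65.8 in WT, which is a difference of -0.80 on the log2 scale (SE 0.177), at a limma adjusted p of 0.195. Its groups did not overlap either, although both means were below background. The RefSeq span of Art3 overlaps Cxcl10 and Cxcl11 but not Cxcl9. Whether its probes also read transcripts of the neighbours was not tested.

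**Figure D2:**
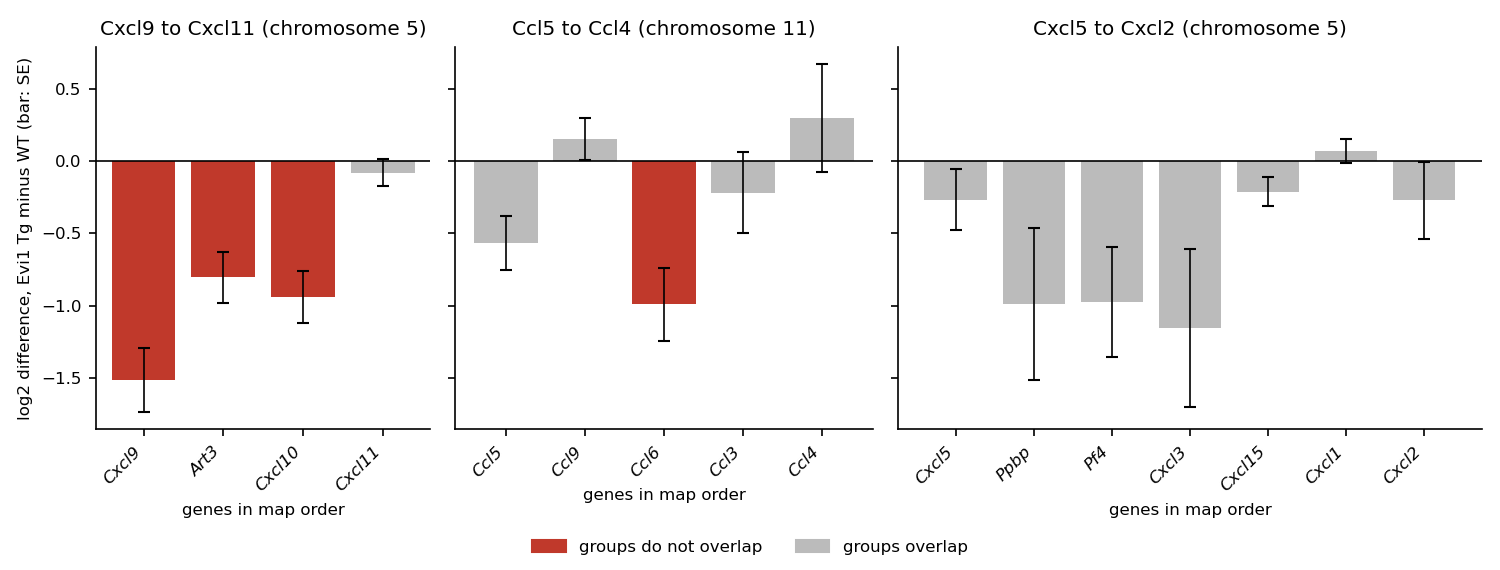
Log2 difference, Evi1 Tg minus WT, of the measured genes of 3 chemokine clusters in map order, with bars for the SE of limma. Red columns are genes whose groups do not overlap (Cxcl9, Art3, Cxcl10 and Ccl6), and grey columns are genes whose groups overlap.

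Promoter sequence was examined because both genes are known to respond to interferon and to NF-kappaB. The 250 bases before the RefSeq start of each gene were taken from build GRCm38.p6, in which all 10 genes were found, with 12 start sites. Matches to 6 motifs on either strand are in capitals. The motifs were the interferon-stimulated response element (GAAA, any 2 bases, GAAAC), the interferon gamma activated site (TTCNNNGAA), the longer NF-kappaB site (GGGA, any 2 bases, TTCC) and the shorter one with 1 free base in place of 2, and the EVI1 sites GACAAGATA and GAAGATGAG. Shown are the windows of the 3 genes with a match, Cxcl9 (chr5:92328080-92328329, minus strand), Cxcl10 (chr5:92348890-92349139, minus strand) and Cxcl3 (chr5:90785851-90786100, plus strand).
Cxcl9: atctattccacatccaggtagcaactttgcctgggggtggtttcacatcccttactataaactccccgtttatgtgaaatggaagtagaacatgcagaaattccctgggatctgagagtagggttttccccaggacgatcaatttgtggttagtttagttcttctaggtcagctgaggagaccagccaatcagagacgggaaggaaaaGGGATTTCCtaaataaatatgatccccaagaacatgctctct
Cxcl10: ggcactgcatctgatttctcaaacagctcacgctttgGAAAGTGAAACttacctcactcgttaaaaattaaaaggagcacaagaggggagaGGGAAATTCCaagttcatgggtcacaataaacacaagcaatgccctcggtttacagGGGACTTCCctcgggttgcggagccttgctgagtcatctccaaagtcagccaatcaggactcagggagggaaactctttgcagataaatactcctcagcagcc
Cxcl3: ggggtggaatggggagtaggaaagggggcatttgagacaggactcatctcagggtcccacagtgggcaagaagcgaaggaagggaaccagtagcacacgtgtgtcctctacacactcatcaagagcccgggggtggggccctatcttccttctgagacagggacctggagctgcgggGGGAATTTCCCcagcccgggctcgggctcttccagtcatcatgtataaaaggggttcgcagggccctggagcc
Cxcl10 held the response element GAAAGTGAAAC from 213 to 203 bases before the start, and NF-kappaB letters GGGAAATTCC (159 to 150) and GGGACTTCC (103 to 95). Cxcl9 held 1 NF-kappaB match, GGGATTTCC, at 42 to 34. Cxcl3 held GGGAATTTCC at 73 to 64, which overlaps a match on the opposite strand. Among 32851 RefSeq start sites of 27025 genes, a wider set than the genes on the arrays, the response element was found in 0.685%, the longer NF-kappaB letters in 1.21%, the shorter in 1.43% and the activated site in 7.02%. EVI1 letters, in 0.107% and 0.347% of start sites, matched 0 of the 12 windows. A match is a description of letters and shows no binding.

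Cxcl3 is a ligand of CXCR2 and attracts neutrophils. Cxcl3 read 77.5, 169.6 and 239.9 in Evi1 Tg, against 211, 676 and 244 in WT. Evi1 Tg 3 lay between WT 1 and WT 3, so the groups overlapped, and WT 2 stood far above the rest. Its log2 difference was -1.15 (SE 0.544, limma adjusted p = 0.537), with a 95% interval of -2.44 to 0.13. Without WT 2 it was -0.63, and without Evi1 Tg 1 it was -0.69. Cxcl2, a ligand of the same receptor, averaged 149 in Evi1 Tg and 179.6 in WT (log2 difference -0.27, SE 0.267). Cxcl1 was below background, at 49.5 in Evi1 Tg and 47.1 in WT. In the same cluster lie the platelet chemokines Pf4 and Ppbp. Pf4 read 52.7, 76.4 and 74.1 in Evi1 Tg, against 155, 207.5 and 70.5 in WT, and Ppbp read 45.1, 103 and 62.1 in Evi1 Tg, against 167.5, 229 and 58.7 in WT. In both genes WT 3 lay with the Evi1 Tg arrays. Pf4 was below background on all Evi1 Tg arrays and on WT 3. The Pf4 log2 difference was -0.98 (limma adjusted p = 0.44), and without WT 3 it was -1.43 and passed (limma adjusted p = 0.0293). Of the other 5 measured megakaryocyte markers, Gp9 had a log2 difference of 0.21. The remaining 4, Gp5 (0.09), Itga2b (0.08), Vwf (-0.04) and Treml1 (-0.06), were below background in mean.

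Ccl3, Ccl6 and Ccl9 are CC ligands of CCR1, and all 3 lie in 1 cluster on chromosome 11. Each was above background on all 6 arrays. Ccl6, produced by myeloid cells of rodents, read 779.6, 974.5 and 1490.0 in Evi1 Tg, against 2514, 2063 and 1713 in WT. No Evi1 Tg array reached the lowest WT array, and Evi1 Tg 3 came closest. Ccl6 differed by -0.99 on the log2 scale (SE 0.249, limma adjusted p = 0.237), a 1.99-fold lower signal, and it stayed between -1.25 and -0.78 when any 1 array was left out (-0.99 without WT 2).

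Ccl9, the neighbour of Ccl6 and also a myeloid chemokine of rodents, read 3394, 4798 and 3570 in Evi1 Tg, against 3372, 3771 and 3334 in WT. Here the groups overlapped and only Evi1 Tg 2 stood above the rest. The log2 difference was 0.15 (SE 0.144, limma adjusted p = 0.816), with a 95% interval of -0.19 to 0.49, and without Evi1 Tg 2 it was -0.00256. Ccl3, which recruits monocytes and macrophages and is known to restrain the cycling of haematopoietic progenitors, read 2029, 3291 and 4317 in Evi1 Tg, against 2847, 4187 and 3821 in WT. All WT arrays lay within the range of the Evi1 Tg arrays, with a difference of -0.22 on the log2 scale (SE 0.28, limma adjusted p = 0.874). Without Evi1 Tg 1 the sign turned, to 0.08. Ccl4, the next gene of the cluster and a close relative of Ccl3, averaged 189 in Evi1 Tg and 154 in WT (log2 difference 0.30, SE 0.371). Ccl5, which draws T cells and monocytes and lies at the opposite end, read 70.0, 79.9 and 65.1 in Evi1 Tg, against 114, 131 and 79.2 in WT. Its log2 difference was -0.57 (SE 0.19, limma adjusted p = 0.365), and without WT 3 it was -0.78 and passed (limma adjusted p = 0.0367). Ccl5 was below background on all Evi1 Tg arrays and on WT 3. Cross-hybridisation among the similar CC ligands was not tested.

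Cxcr2, the neutrophil receptor for Cxcl3 and its relatives, read 226, 73.4 and 206.5 in Evi1 Tg, against 178, 1085 and 82.8 in WT. It had the widest spread of the 10 genes, 3.89 on the log2 scale over the 6 arrays. That spread ran within the groups. WT 2 was the highest array, while WT 3 and Evi1 Tg 2 were the lowest, at or below background. For Cxcr2 the log2 difference came to -0.74 (SE 0.919, limma adjusted p = 0.871, 95% interval -2.91 to 1.43), and without WT 2 it turned to 0.31. Ngp, a granule protein of maturing neutrophils, read 447.7, 124 and 1830 in Evi1 Tg, against 785, 3138 and 430.3 in WT. Ly6g, the neutrophil surface antigen, read 66.6, 43.9 and 76.3 in Evi1 Tg, against 83.4, 304 and 56.2 in WT. Of the 11 markers other than Cxcr2, 5 were highest on WT 2 as Cxcr2 was (Ngp, Ly6g, Camp, Csf3r and Retnlg). Another 5, S100a8, S100a9, Stfa2l1, Lcn2 and Ltf, were highest on Evi1 Tg 3, and Mmp8 was highest on Evi1 Tg 2, where Cxcr2 was lowest. Retnlg (30.4 to 34.3) and Ltf (35.3 to 65.6) were below background on all 6 arrays, so their highest array carries little weight. S100a8, a calcium-binding protein of neutrophils, read 1012, 157 and 2862 in Evi1 Tg, against 1203, 2613 and 663.5 in WT. The median deviation of the 12 neutrophil markers, Cxcr2 included, from their means over the 6 arrays was -0.24, -1.05 and 0.53 in Evi1 Tg 1, 2 and 3, against -0.05, 1.33 and -0.51 in WT 1, 2 and 3. Their part in the Cxcr2 values was not tested.

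**Figure D3:**
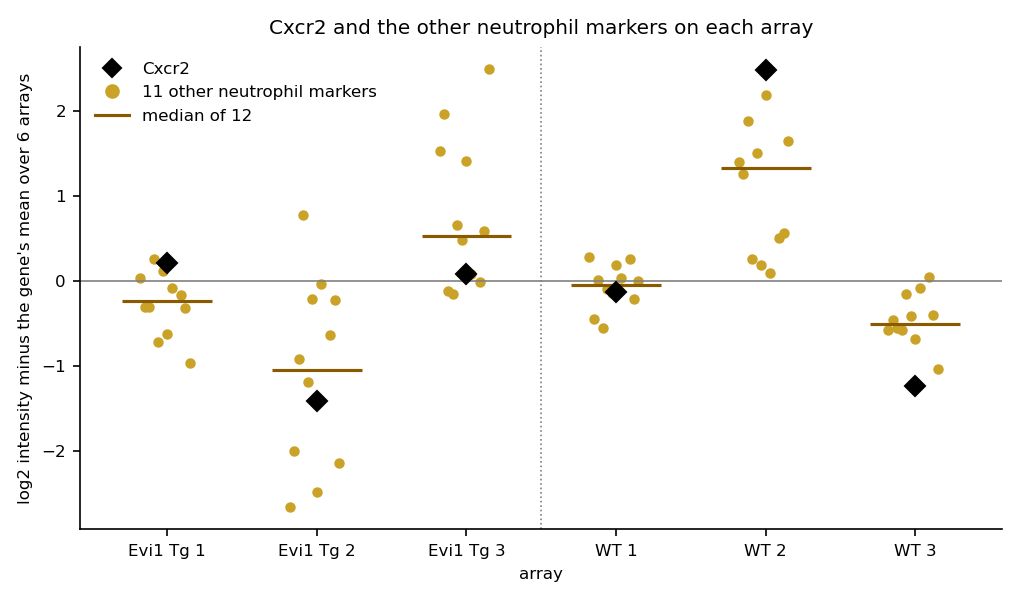
Deviation of log2 intensity from the gene's mean over the 6 arrays, for Cxcr2 (diamonds) and 11 other neutrophil markers (dots), on each Evi1 Tg and WT array. Lines are the median of all 12. Cxcr2 and the median are both highest on WT 2 (2.48 and 1.33) and lowest on Evi1 Tg 2 (-1.41 and -1.05).

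Cxcr4, the receptor for the niche chemokine CXCL12, read 869, 748 and 1184 in Evi1 Tg, against 709, 1043 and 866 in WT. The groups overlapped, with Evi1 Tg 3 the highest array and WT 1 the lowest. A log2 difference of 0.09 was found (SE 0.203, limma adjusted p = 0.941), with a 95% interval of -0.39 to 0.57. Its sign turned without Evi1 Tg 3 (-0.10) and without WT 1 (-0.05). Cxcl12 was below background in these sorted cells, at a mean of 47.6 in each group, and the scavenging receptor Ackr3, which also binds CXCL12, averaged 59.1 in Evi1 Tg and 54.8 in WT.

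Ccr2, the monocyte receptor for CCL2, read 212.5, 286 and 203 in Evi1 Tg, against 129.7, 241 and 154 in WT. Of the 10 genes it had the largest difference above 0, and 2 of the 3 WT arrays lay below all Evi1 Tg arrays while WT 2 lay among them. The Ccr2 log2 difference was 0.45 (SE 0.243, limma adjusted p = 0.597), and it ranged from 0.27 without WT 1 to 0.71 without WT 2. Its ligand Ccl2 averaged 104 in Evi1 Tg and 118 in WT (log2 difference -0.18, SE 0.162). Cx3cr1, the fractalkine receptor of monocytes, averaged 98.8 in Evi1 Tg and 79.4 in WT. Those groups did not overlap, and Cx3cr1 differed by 0.32 on the log2 scale (SE 0.103, limma adjusted p = 0.349). Of 12 monocyte and macrophage markers 6 lay above and 6 below 0, and the 6 above include Ccr2 and Cx3cr1 themselves. Log2 differences were 0.64 for Cd68, -0.67 for Cd14 and -1.13 for Adgre1, a macrophage surface receptor (limma adjusted p of 0.302, 0.349 and 0.139).

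Ccrl2, an atypical receptor that binds and presents the chemotactic protein chemerin, read 104.6, 82.85 and 151.5 in Evi1 Tg, against 187, 224 and 201 in WT. Every WT array lay above every Evi1 Tg array, and Evi1 Tg 2 was at background. The log2 difference was -0.89 (SE 0.211, limma adjusted p = 0.218), a 1.86-fold lower signal, with a range of -1.13 to -0.69 when 1 array was left out (-0.83 without WT 2). The remaining atypical receptors were close to or below background. Pitpnm3 had a log2 difference of 0.15, Ackr3 one of 0.11 and Ackr2 one of 0.07.

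**Figure D4:**
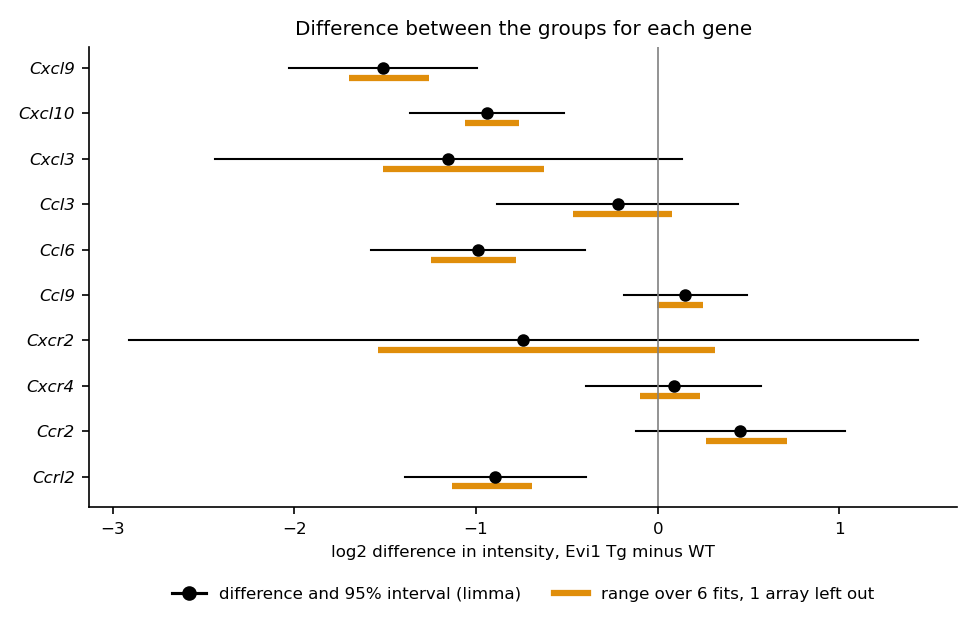
Log2 difference in intensity, Evi1 Tg minus WT, of the 10 genes, with the 95% interval of limma (black) and the range over the 6 fits that leave out 1 array (orange). The orange range of Cxcl9, Cxcl10, Cxcl3, Ccl6 and Ccrl2 lies below 0 and that of Ccr2 above it, while those of Ccl3, Ccl9, Cxcr2 and Cxcr4 cross 0.

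Cxcr3, the receptor for Cxcl9 and Cxcl10, was below background in mean at 74.1 in Evi1 Tg and 68.9 in WT (log2 difference 0.11, SE 0.127). Ccr1, which binds Ccl3, Ccl6 and Ccl9, read 139.5, 123 and 349 in Evi1 Tg, against 129, 203 and 122 in WT. The groups overlapped, and Ccr1 differed by 0.30 on the log2 scale (SE 0.404, limma adjusted p = 0.883).

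Of 63 listed chemokine and chemokine receptor genes, 60 were in the gene table and 20 were brighter than background in mean. Over the 60, 27 differences lay above 0 and 33 below, against 46.5% of all genes below 0. In either direction 0 passed, against 0.113% of all genes. At an unadjusted limma p under 0.05 there were 1 higher and 6 lower, against 10.3% of all genes in either direction and 5.8% lower. Of those 6 lower genes 4 were among the 10 picked genes and 2 among the other 50. Their median difference was -0.01, against 0.01 over all genes. It moved between -0.05 and 0.01 as single arrays were left out. Groups did not overlap for 13.3% of the 60, against 14.6% of all genes. The 50 genes beyond the 10 had a median of -0.004 and 8% without overlap. In the 19 CC ligands 9 lay above and 10 below 0, and in the 17 CXC, CX3C and XC ligands 4 lay above and 13 below. For signalling receptors the counts were 10 above and 8 below, and for atypical receptors 4 above and 2 below. Members with the smallest p outside the 10, besides those given above, were the ligands Ccl27a (log2 difference 0.25), Ccl24 (0.22), Cxcl15 (-0.21) and Cxcl16 (-0.28) and the receptors Cxcr5 (-0.16) and Xcr1 (0.11). Each of these 6 but Cxcl16, at 72.7 in Evi1 Tg and 88.4 in WT, was below background in both groups.

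**Figure D5:**
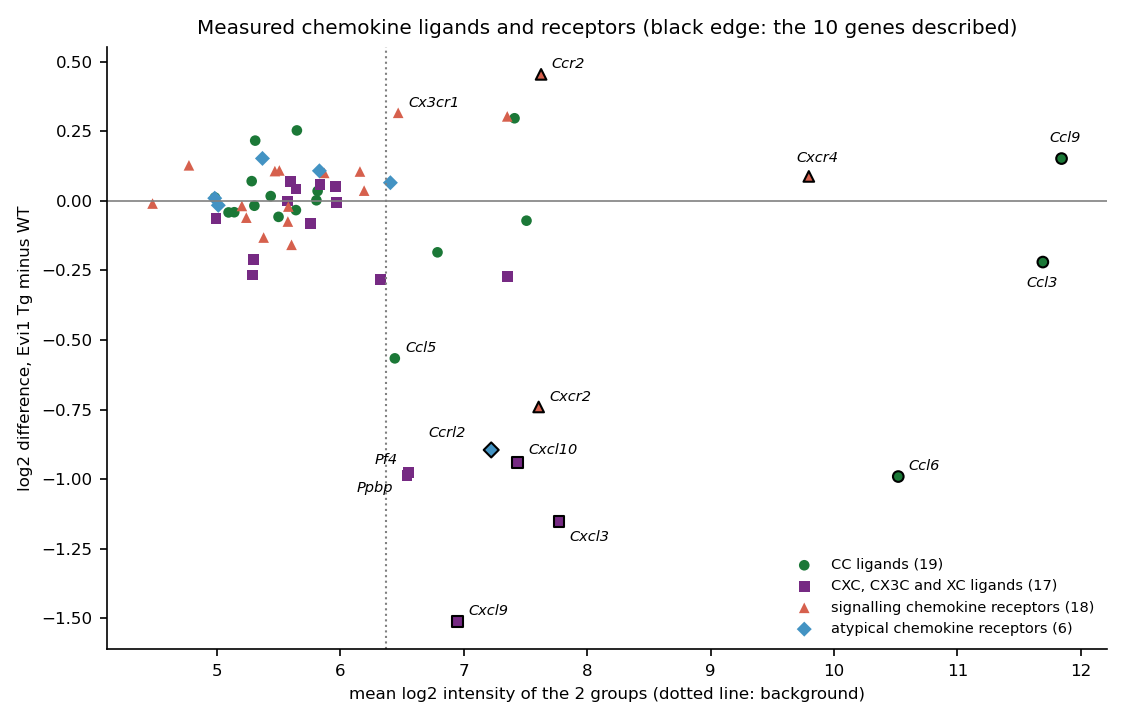
Log2 difference, Evi1 Tg minus WT, against mean log2 intensity of the 60 measured chemokine ligands and receptors, by class, with the 10 genes described outlined in black. Most genes sit near 0 and left of the dotted background line, and the genes with lower signal in Evi1 Tg, from Ccl5 down to Cxcl9, lie to the right of it. The position is the mean of both groups. Cxcl9, Ccl5 and Pf4 were below background on all Evi1 Tg arrays and lie to the right only through WT.

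Signals that act on these genes were read beside them. The interferon gamma response list, with 26 measured genes, had 10 above and 16 below 0, with a median of -0.08. Over all genes 46.5% lay below 0. In the list 0 passed the threshold, against 0.113% of all genes. Irgm2, an interferon-induced GTPase, read 122.5, 83.4 and 97.4 in Evi1 Tg, against 174, 173 and 133 in WT (log2 difference -0.67, SE 0.17). The receptor chain Ifngr1 averaged 3139 in Evi1 Tg and 2243 in WT (0.48, SE 0.117), and the peptide transporter Tap2 averaged 171 in Evi1 Tg and 120.1 in WT (0.51, SE 0.131). In these 3 genes, named for the smallest p of the list, the groups did not overlap, and the limma adjusted p lay between 0.225 and 0.243. Over the whole list 26.9% had groups without overlap (3 higher and 4 lower), against 14.6% of all genes. Ifng itself was below background, at 39.9 in Evi1 Tg and 43.0 in WT.

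Among 22 inducing cytokines and their receptors 5 lay above and 17 below 0 (median -0.08), against 46.5% of all genes below 0. None passed, against 0.113% of all genes, and 18.2% had groups without overlap (0 higher and 4 lower), against 14.6%. Il1b, an inducer of many chemokines through NF-kappaB, read 120.5, 164 and 99.8 in Evi1 Tg, against 352, 508 and 197 in WT. These groups did not overlap, and the log2 difference was -1.39 (SE 0.346, limma adjusted p = 0.232). Il1a had a log2 difference of -0.70 (SE 0.222) and Csf2ra, a chain of the GM-CSF receptor, one of -0.49 (SE 0.131), also without overlap. Tnf averaged 1381 in Evi1 Tg and 1421 in WT (-0.04, SE 0.238).

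Of the genes that act downstream of the receptors, 37 measured genes of chemokine signal transduction had a median of -0.07. Of these 14 lay above and 23 below 0, against 46.5% of all genes below 0, and 1 passed, against 0.113%. The 1 gene past the threshold was Rgs2, which shortens G protein signals. It read 210.7, 190.1 and 210.3 in Evi1 Tg, against 571, 511 and 522 in WT, and fell by 1.39 on the log2 scale (SE 0.0883, limma adjusted p = 0.00478). Of 12 proteases known to trim or degrade chemokines, 5 lay above and 7 below 0 (median -0.04), and 0 passed. Groups did not overlap for 41.7% of them (1 higher and 4 lower), against 14.6% of all genes. Mmp14 averaged 115.5 in Evi1 Tg and 283 in WT (log2 difference -1.29, SE 0.302), and Mmp2 averaged 78.1 in Evi1 Tg and 155.5 in WT (-0.99, SE 0.218). Dpp4, which inactivates several chemokines, was below background at 36.3 in Evi1 Tg and 50.05 in WT (-0.46, SE 0.11). Their limma adjusted p lay between 0.195 and 0.222. The brightest gene of the list went the other way. This was Elane, at 8611 in Evi1 Tg and 6352 in WT (0.44, SE 0.131, limma adjusted p = 0.31), without overlap. The 12 proteases summed to 19210 to 21000 in Evi1 Tg and 14280 to 18280 in WT.

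Likeness was measured as the mean absolute gap, over the 6 arrays, between the log2 deviations of 2 genes from their own means. Among the 10 genes Ccl3 with Cxcr4 and Ccl9 with Ccr2 (each 0.234) and Ccl6 with Ccrl2 (0.235) had the smallest gaps, and the gap of Cxcl9 with Cxcl10 was 0.358. Among 8979 other genes brighter than background in mean, those nearest to Cxcl9 were Otogl (0.0986), Cyp4a12b (0.148) and Igf2r (0.18). Each was lower on all Evi1 Tg arrays, which follows from the choice by likeness to Cxcl9. Cyp4a12b and Igf2r themselves passed (limma adjusted p of 0.00627 and 0.0239), and for the same reason those calls add no support for Cxcl9. Nearest to Cxcl10 were Il21r, Pmaip1 and Itga1 (0.159 to 0.163). Otogl, Il21r and Itga1 were below background on all Evi1 Tg arrays and passed the brightness filter only through WT. Ccl6 lay nearest to Mansc1 (0.032), Ddt (0.0652) and Nt5e (0.0735), and Ccrl2 to Anxa3 (0.0842), Mcemp1 (0.088) and Slc6a12 (0.0951). Mansc1 read 162, 216 and 307 in Evi1 Tg, against 532, 427 and 370 in WT, in the same order of arrays as Ccl6. The nearest genes of Cxcl3 were Plek, Cd300e and Mr1 (0.306 to 0.368), and those of Ccl3 were the NF-kappaB regulators Nfkbiz (0.134) and Nfkbid (0.142) and the MAX partner Mxd1 (0.144). For Ccl9 they were BC064078, Jsrp1 and Tgif1 (0.0465 to 0.0566), for Cxcr4 Sepsecs, Clec5a and Lat (0.0434 to 0.0584) and for Ccr2 Gfi1b, Fgd2 and Fuz (0.0643 to 0.101). Cxcr2 had no close match, with Sorl1 (0.508), Lyst (0.53) and Dusp6 (0.535) nearest. With 6 arrays and many candidates such matches are a description only.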

How the data were processed

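Intensity of each probe set on the 6 arrays came from 1 file as the authors deposited it, and the values look linear. How background was corrected and how arrays were normalized and summarised: not given in the sources used here. Labelled cDNA was prepared with a GeneChip WT PLUS kit, according to the protocols in the labels.

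Of 34351 probe sets, 23521 had 1 gene symbol in the platform annotation. The probe set with the highest mean was kept for each gene, and 22180 genes were left. No filter or pseudocount was applied before the log2. Groups were fitted in limma 3.58.1 (lmFit, eBayes; R 4.3.3), and p-values were adjusted across the table by Benjamini-Hochberg. With 3 arrays a group, exact permutation of 1 gene's values reaches no two-sided p under 0.1. In data simulated for Evi1 Tg against WT over 22180 genes, the fit recovered 79% of 2-fold and 98% of 4-fold changes (100 genes each), with 13 false calls. The simulated noise was normal and independent for every gene and array, without effects shared across an array. It therefore checks the fit and does not give its power on the real arrays. Promoter letters came from RefSeq, and figures from matplotlib 3.10.9.

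The 10 genes and all lists were chosen with earlier results of these data known. Named from each list were the genes past the threshold or, with none, the 3 with the smallest p outside the 10, and for each of the 10 the 3 genes nearest in pattern. Further receptors, ligands, cluster neighbours and markers were named with their values seen. Alternatives covered dim genes, scaling, variance settings, array weights, a replicate block and each array left out.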

Additional observations from a re-analysis of the deposited data

How the results depend on the processing

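As reported, limma called 0 of the 10 genes, 0 of the 60 chemokine and receptor genes, and 2 higher and 23 lower among all genes. Of the 10, 1 was lower (Cxcl9) with dim genes left out (adjusted p = 0.0474, a filter it passed only through WT), with trend and robust settings (0.0428) and with array weights (0.0436), and that was also the 1 call among the 60. Those settings gave 6, 6 and 32 higher genes among all, and array weights 82 lower. Same-numbered arrays deviated with correlations of 0.189, -0.185 and 0.0614. Differently numbered arrays were not compared, so these values do not settle whether the numbers pair the arrays. The replicate block lowered the SE of some genes (Ccr2, from 0.243 to 0.118) and raised that of others (Cxcl10, from 0.179 to 0.19). With the replicate block 0 genes were higher and 9 lower in all, 0 of the 60 were called, and Cxcl9 had an adjusted p of 0.0848. Without variance moderation 0 genes passed, higher or lower. Leaving out 1 array at a time gave 0 to 2 lower of the 10, 0 to 4 lower of the 60 (Cxcl9, Cxcl10, Ccl5 and Pf4 without WT 3), and 0 to 383 higher and 2 to 173 lower among all genes, both highest without WT 3. Signs turned without Evi1 Tg 1 for Ccl3 (0.0779), without Evi1 Tg 2 for Ccl9 (-0.00256), without Evi1 Tg 3 (-0.0974) and WT 1 (-0.0531) for Cxcr4, and without WT 2 for Cxcr2 (0.313). Over the same 6 fits the ranges were -0.467 to 0.0779 for Ccl3, -0.00256 to 0.247 for Ccl9, -1.54 to 0.313 for Cxcr2 and -0.0974 to 0.234 for Cxcr4. The cause was not tested. Each of the 10 genes had 1 probe set, so no second one could be compared. Of the 60 genes 20 were brighter than background in mean, and signal near background limits all the others. Among those 20 it also limits Cxcl9, Cxcl3, Cxcr2 and Ccrl2 of the 10, and Ccl5, Pf4, Ppbp, Cx3cr1 and Ackr2 beyond the 10. Having 3 arrays a group limits all values.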
